A study of Mus musculus with 15 samples.

Results

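Histone marks were described at 10 genes of blood vessels and of the extracellular matrix in mouse pancreatic islets, out of 21938 protein-coding genes on chromosomes 1 to 19, X and Y. The genes were taken by name: Pecam1, Kdr and Vegfa for endothelial cells and their growth factor signal, Col1a1, Col1a2, Col4a1, Col4a2, Fn1 and Sparc for the matrix, and Acta2 for contractile cells. For each gene, peaks were collected that overlapped 1 kb either side of the transcription start site (TSS), or the gene body with 20 kb on either side, in GRCm38 with GENCODE release 21. The rule itself uses no measured value, although the names were picked with earlier results of these data known. All 10 genes were found in the annotation and are accounted for below.

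Islets came from CBA mice, which per the study's methods were adult males, and were picked by hand after collagenase digestion. Animals were fed a regular chow (RD), a high-fat diet (HFD) or the high-fat diet with O304, an activator of the energy sensor AMPK (HFD-O304). H3K27Ac and H3K27Me3 were mapped by ChIP-seq on pooled islets with 2 replicates for each mark and diet. The authors merged these before peaks were called, so that each mark and diet had 1 list of broad peaks, no replicate error could be given and no difference between diets could be tested.

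H3K27Ac is deposited at active promoters and enhancers, whereas H3K27Me3 is laid down by Polycomb at genes that are kept silent. Islets are densely vascularised: beta cells secrete VEGF-A, intra-islet endothelial cells respond through VEGFR2, and the capillaries supply the basement membrane, which beta cells do not make themselves. Whole islets were used, in which endocrine cells outnumber endothelial, mural and stromal cells, and fewer cells carrying a mark cannot be told apart from less of the mark per cell.

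The lists rested on 83773042 to 95218072 kept fragments for H3K27Ac and on 74870300 (RD), 54166902 (HFD) and 57324419 (HFD-O304) for H3K27Me3. Peak height is given as pileup over background, the deposited mean number of fragments over a base of the peak divided by the number that a uniform spread of the kept fragments would give. The weakest peak in a list stood at 2.40 (RD), 2.26 (HFD) and 2.37 (HFD-O304) times background for H3K27Ac. For H3K27Me3 it stood at 2.74, 3.10 and 2.97 times in the same order. A missing peak therefore means a level that was not called at this depth, not that the mark was absent. Brackets after a height hold the 95% Poisson interval of the fragments in the peak, which covers counting error alone. As a check of the tissue, H3K27Ac lay at the TSS of 7 (RD), 9 (HFD) and 8 (HFD-O304) of 13 beta and islet cell markers. These shares of 53.8%, 69.2% and 61.5% stood against 44.1%, 49.9% and 49.4% of all genes, so the check is weak, most of all in RD. The markers Nkx6-1 and Isl1 were called in each diet. The insulin gene Ins1 had the mark in RD and HFD but not in HFD-O304. The TSS of Ins2, Gcg and Sst had none, nor had any of 8 immune markers, for which H3K27Me3 was not called either.

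The 250 bases before the TSS are shown for genes that represent 4 patterns, H3K27Ac in each diet (Vegfa), H3K27Me3 in each diet (Kdr), both marks (Fn1), and H3K27Me3 in HFD and HFD-O304 (Col1a2). They were read from the GRCm38 reference (C57BL/6J, not CBA) at chr17:46032370-46032619 (minus strand), chr5:75978459-75978708 (minus), chr1:71653201-71653450 (minus) and chr6:4504564-4504813 (plus), 5′ to 3′ along the gene. Capitals mark the GC box GGGCGG, or CCGCCC where it was read on the other strand.
Vegfa: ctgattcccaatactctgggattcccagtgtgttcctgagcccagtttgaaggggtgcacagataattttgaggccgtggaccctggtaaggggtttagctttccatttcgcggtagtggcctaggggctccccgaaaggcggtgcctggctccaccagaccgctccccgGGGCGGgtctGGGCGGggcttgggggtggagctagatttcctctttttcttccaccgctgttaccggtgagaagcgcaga
Kdr: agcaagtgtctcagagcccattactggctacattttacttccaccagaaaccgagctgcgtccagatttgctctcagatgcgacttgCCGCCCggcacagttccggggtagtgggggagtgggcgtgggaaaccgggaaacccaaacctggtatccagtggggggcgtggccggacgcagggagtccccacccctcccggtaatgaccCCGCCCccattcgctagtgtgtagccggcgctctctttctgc
Fn1: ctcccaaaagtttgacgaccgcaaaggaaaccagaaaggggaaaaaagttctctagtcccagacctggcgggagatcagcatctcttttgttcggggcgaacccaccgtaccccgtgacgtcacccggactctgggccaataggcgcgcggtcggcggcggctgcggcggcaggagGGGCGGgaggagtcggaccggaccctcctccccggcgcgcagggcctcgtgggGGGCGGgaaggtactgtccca
Col1a2: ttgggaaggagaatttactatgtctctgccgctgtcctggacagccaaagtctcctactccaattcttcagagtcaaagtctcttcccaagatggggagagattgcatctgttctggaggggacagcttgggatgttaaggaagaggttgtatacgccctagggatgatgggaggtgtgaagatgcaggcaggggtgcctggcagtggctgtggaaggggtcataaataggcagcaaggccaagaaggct
The GC box occurred 2 times each in the windows of Vegfa (from 80 and 70 bases before the TSS), Kdr (163 and 42, on the opposite strand) and Fn1 (74 and 21), and was not present in that of Col1a2. Among all 21938 windows of this length, 39.0% held it. The Col1a2 window precedes the start of the GENCODE gene record, whereas RefSeq places the start inside the gene, at 4505618. The H3K27Me3 peaks at Kdr spanned the whole window in each diet, and so did the RD peak of H3K27Ac at Vegfa. The Vegfa peaks of HFD and HFD-O304 began 91 and 200 bases inside the gene and did not reach the sequence shown. At Fn1 the H3K27Me3 peaks spanned the window in each diet, whereas the H3K27Ac peak of HFD covered only part of it. At Col1a2 the H3K27Me3 peak of HFD spanned the window, whereas that of HFD-O304 lay inside the gene and did not reach it.

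At the TSS, H3K27Ac was found at few of these genes and H3K27Me3 at many. Vegfa alone had H3K27Ac in RD, 1 of 10 genes against 44.1% of all genes. In HFD the mark was called at Vegfa and Fn1, 2 of 10 against 49.9%, and in HFD-O304 again at Vegfa alone, 1 of 10 against 49.4%. The other 8 genes had no H3K27Ac peak at the TSS in any list, a pattern shared by 47.4% of all genes. H3K27Me3 was called at Kdr and Fn1 in RD, 2 of 10 genes against 6.63% of all genes. In HFD it was also called at Col1a2, Col4a1 and Col4a2, which made 5 of 10 against 8.46%. HFD-O304 added Col1a1 and Acta2, for 7 of 10 against 8.88%. These 7 were also the total over the diets, against 11% of all genes with H3K27Me3 in at least 1 diet. Col4a1 and Col4a2 share 1 peak and are a single observation. Neither mark was called at the TSS of 7 genes under RD, 4 under HFD and 2 under HFD-O304, against 51%, 44.5% and 44.1% of all genes. Pecam1 and Sparc had neither in any diet, a pattern shared by 41.0% of all genes.

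**Figure D1:**
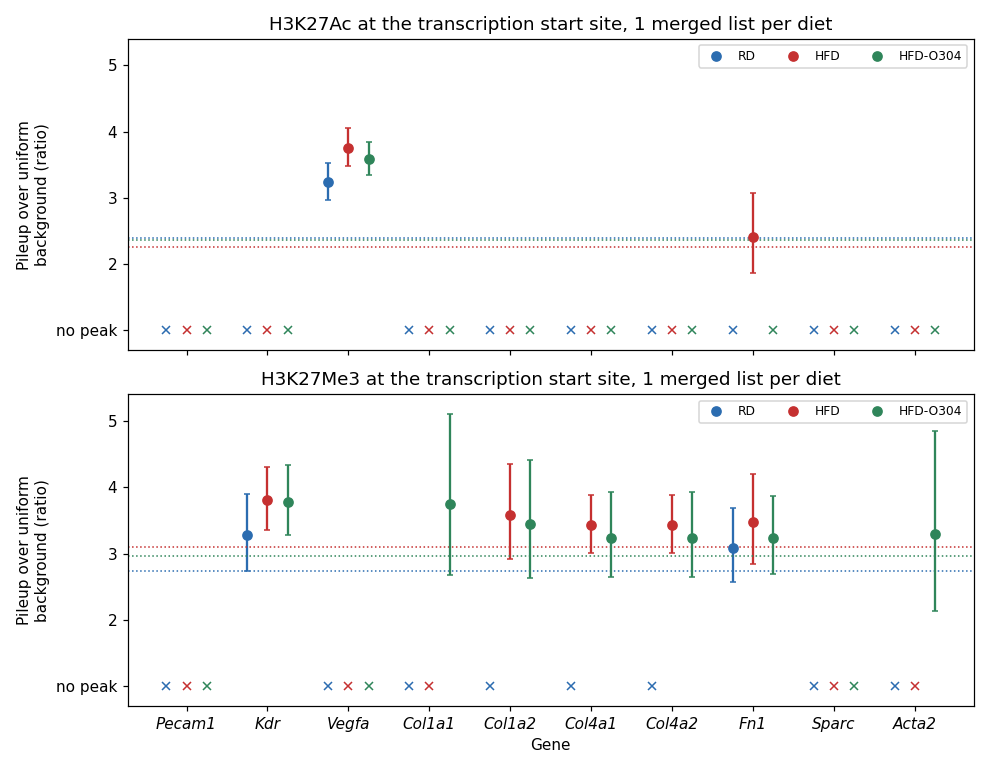
Pileup over uniform background (ratio) of the peak at the TSS of each gene, for H3K27Ac (top) and H3K27Me3 (bottom) in RD, HFD and HFD-O304. Bars are 95% Poisson intervals of counting error, crosses mark genes without a peak, and dotted lines give the weakest peak of each list. Vegfa stands alone in the top panel apart from Fn1 in HFD, and the bottom panel fills from Kdr and Fn1 in RD to 7 genes in HFD-O304.

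Few of these H3K27Me3 calls passed a stricter cutoff, and the same held over all genes. At −log10 q values of 5 or more, H3K27Me3 remained at Kdr in HFD-O304 and at none of the 10 TSS in RD or HFD. The share of all genes fell to 1.08%, 2.22% and 2.13%. In height, Kdr stood above 76.2%, 67.8% and 76.9% of the H3K27Me3 peaks at the TSS of all genes in RD, HFD and HFD-O304. Col1a1 stood above 74.8% in HFD-O304 and Fn1 above 55.0% in RD. The other H3K27Me3 peaks at the 10 TSS were below the middle of this class. Peaks were also kept only from a deposited fold of 2.76 in the 3 lists, and the TSS calls of RD and HFD-O304 at the 10 genes held. That fold was the lowest of the HFD list, so no HFD call could be lost and none could be gained in RD. The counts of 2, 5 and 7 of 10 then stood against 3.85%, 8.46% and 8.33% of all genes.

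Among the genes of endothelial signalling, the ligand and its receptor carried opposite marks. Vegfa, which encodes the growth factor VEGF-A, lies on chromosome 17 (46016993 to 46032369, minus strand). Its H3K27Ac peak at the TSS reached 3.24 times background (2.97 to 3.53) under RD, 3.76 (3.47 to 4.06) under HFD and 3.59 (3.34 to 3.85) under HFD-O304. The RD value was the lowest of the 3, and its interval overlapped both of the others. The peaks were 3669, 3386 and 4799 bp wide and lay in the first part of the gene, with the TSS itself covered in RD alone. They were wider than 98.6%, 97.1% and 98.9% of the H3K27Ac peaks at the TSS of all genes, whose median widths were 967, 1086 and 1062 bp. In height they were closer to the middle, above 55.6%, 75.5% and 66.1% of those peaks.

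Further H3K27Ac was found within the Vegfa gene. In RD a peak at 46024507 to 46027489 stood at 2.56 times background. The same place was covered in HFD (46024316 to 46027706, 2.55 times) and in part in HFD-O304 (46024693 to 46025652, 2.79 times). Another peak, near the 3′ end, was called in HFD (46020771 to 46022930, 2.45 times) and HFD-O304 (46021205 to 46022842, 2.50 times) and not in RD. H3K27Ac covered 12%, 16.1% and 13.4% of the gene with its flanks in RD, HFD and HFD-O304. The nearest H3K27Me3 peak was 202.6, 264.6 and 226.9 kb from the Vegfa TSS in the same order.

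Kdr encodes VEGFR2, the main signalling receptor for VEGF-A on endothelial cells, and lies on chromosome 5 (75932827 to 75978458, minus strand). It carried H3K27Me3 over the TSS in each diet, at 3.28 times background (2.74 to 3.90) under RD, 3.81 (3.36 to 4.31) under HFD and 3.78 (3.27 to 4.33) under HFD-O304. The 3 intervals overlapped, with RD the lowest. The peak was narrowest in RD (967 bp), widest in HFD (2301 bp) and intermediate in HFD-O304 (1755 bp). The nearest H3K27Ac peak was 159.7 kb from the TSS in RD, 142.7 kb in HFD and 159.7 kb in HFD-O304. Of all genes 627 had the same set of TSS calls over the 6 lists as Kdr, and 8913 had that of Vegfa.

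Pecam1 encodes CD31, an adhesion molecule at endothelial cell junctions, and lies on chromosome 11 (106654217 to 106750628, minus strand). Neither mark was called at its TSS, and the nearest H3K27Me3 peak was 193.4, 193.7 and 193.1 kb away in RD, HFD and HFD-O304. H3K27Ac was found inside introns in the 3′ part of the gene. A peak 75.7 to 76.7 kb into the gene was called in each diet, 888 bp wide at 2.59 times background in RD, 3577 bp at 2.52 times in HFD and 2770 bp at 2.53 times in HFD-O304. A peak 91.9 kb into the gene was called in HFD (106657951 to 106659466, 2.39 times) and HFD-O304 (106658039 to 106659454, 2.53 times) but not in RD. A short peak of 307 bp, 13.3 kb into the gene, was called in HFD-O304 alone (2.54 times). In all, H3K27Ac covered 888 bp of the Pecam1 window in RD, 5093 bp under HFD and 4493 bp under HFD-O304. These peaks lay near the weakest level that could be called, and Pecam1 had none of them at a −log10 q of at least 5.

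The fibrillar collagen genes gave no H3K27Ac peak within 20 kb in any diet, and H3K27Me3 was called in HFD and HFD-O304 but not in RD. Col1a1 and Col1a2 encode the chains of type I collagen, the main collagen of interstitial matrix. Col1a2 (chromosome 6, 4504814 to 4541544, plus strand) had H3K27Me3 at the TSS in HFD (4504503 to 4505488, 986 bp) and in HFD-O304 (4505074 to 4505658, 585 bp). Heights were 3.58 times background (2.92 to 4.35) and 3.44 (2.63 to 4.41). In RD no peak was called, and the nearest was 216.6 kb away. The nearest H3K27Ac peak was 95.6 kb from the TSS in RD, 95.7 kb in HFD and 95.6 kb in HFD-O304.

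Col1a1 (chromosome 11, 94936224 to 94953042, plus strand) differed from Col1a2 in the call at the TSS in HFD. In HFD-O304 a peak of 345 bp spanned the TSS (94935916 to 94936260) at 3.75 times background (2.67 to 5.11), an interval that rests on about 40 fragments. A second peak of 225 bp lay 2.2 kb into the gene (94938346 to 94938570, 3.15 times). In HFD a peak of 683 bp covered the latter place (94937872 to 94938554, 3.40 times), outside the TSS window. With 2 kb either side of the TSS, Col1a1 counted as called in HFD as well. In RD the nearest H3K27Me3 peak was 182 kb from the TSS.

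The genes of type IV collagen, the network-forming collagen of basement membranes, stand head to head on chromosome 8. Col4a1 (11198423 to 11312826, minus strand) and Col4a2 (11312805 to 11449287, plus strand) overlap by 22 bp and are transcribed in opposite directions from starts 21 bp apart. A single H3K27Me3 peak covered both starts in HFD (11312077 to 11314509, 2433 bp) at 3.43 times background (3.01 to 3.89). In HFD-O304 it was 1044 bp wide (11312169 to 11313212) at 3.24 times (2.65 to 3.93). RD had no peak there, and its nearest H3K27Me3 peak was 85.9 kb away inside Col4a2. These peaks were low for their class, above 30.7% and 26.9% of the H3K27Me3 peaks at the TSS of all genes in HFD and HFD-O304.

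Away from the shared start, H3K27Me3 was more frequent at the pair in HFD than in RD. Within Col4a1 it was called in HFD at 6.1, 16.4 and 31.1 kb from the TSS, and in HFD-O304 only the last of these was called. A peak 16.1 kb before the Col4a1 TSS, inside Col4a2, was found in HFD (3.73 times) and HFD-O304 (3.46 times). Another, 86.3 kb into Col4a2, was found in RD (11398759 to 11399449, 2.81 times) and HFD-O304 (11398660 to 11399328, 3.21 times) and not in HFD. The RD value at this place was below the weakest H3K27Me3 peak called in either of the other lists.

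H3K27Ac was present at the other end of Col4a1. Within the gene a peak of 3873 bp in RD (11213470 to 11217342), 3822 bp under HFD and 3848 bp under HFD-O304 lay 97.4, 97.4 and 98.3 kb from the TSS. Its height was 2.70, 2.88 and 2.75 times background. Beyond the 3′ end, 124.6 to 129.4 kb from the TSS, H3K27Ac was called in each diet, at up to 2.99 (RD), 3.30 (HFD) and 3.28 (HFD-O304) times background. A short peak 77.5 to 77.7 kb from the TSS was called in HFD (280 bp, 2.40 times) and HFD-O304 (283 bp, 2.48 times). An annotated Col4a1 transcript starts within reach of the H3K27Ac in the 3′ part, so that Col4a1 counted as called for H3K27Ac when every transcript start was used. No H3K27Ac peak was found in the Col4a2 window. Col4a1 thus held H3K27Ac and H3K27Me3 at opposite ends in HFD and HFD-O304, the only one of the 10 genes besides Fn1 with both marks in its window.

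**Figure D2:**
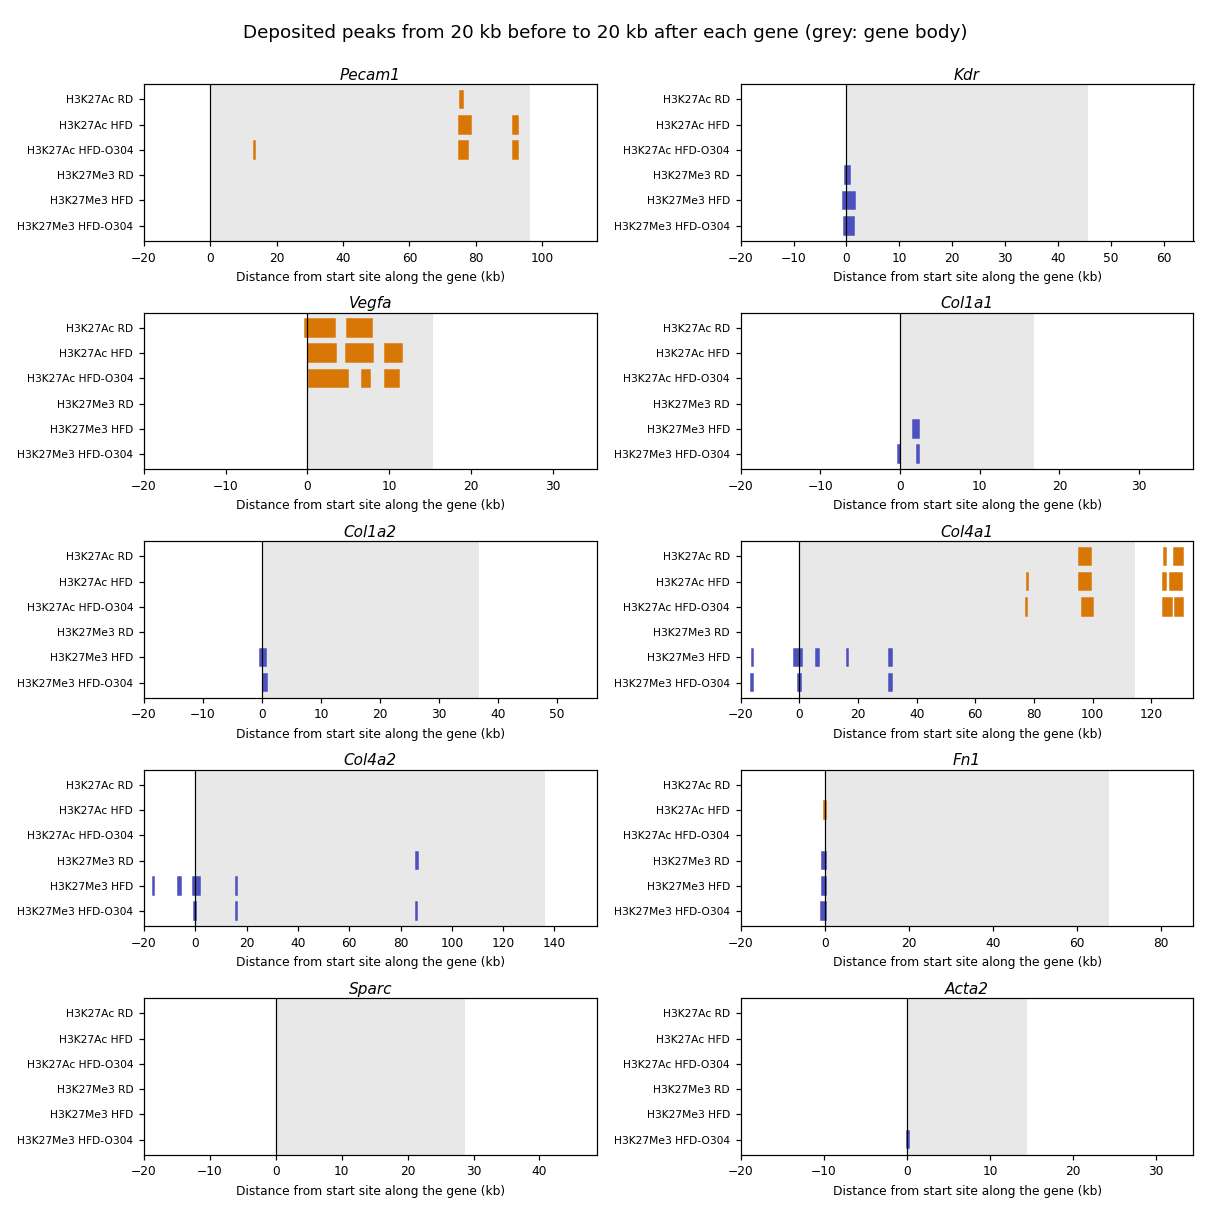
Position of each deposited peak (orange for H3K27Ac, blue for H3K27Me3) relative to the TSS, in kb along the direction of transcription, with 1 line for each mark and diet and the gene body in grey. H3K27Ac fills the first part of Vegfa and lies in the far ends of Pecam1 and Col4a1, H3K27Me3 lies at the TSS of 7 genes in at least 1 diet, and Sparc has no peak. Col4a1 and Col4a2 show the same H3K27Me3 peaks where their windows overlap.

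Fn1 encodes fibronectin, a matrix glycoprotein bound by integrins, and lies on chromosome 1 (71585520 to 71653200, minus strand). It was the only gene of the 10 with both marks at the TSS, which occurred in HFD, where 2.84% of all genes had both. In RD and HFD-O304, where 1.75% and 2.39% of all genes had both, 0 of the 10 did. H3K27Me3 was called in each diet, at 3.09 times background (2.57 to 3.68) under RD, 3.47 (2.84 to 4.19) under HFD and 3.24 (2.69 to 3.87) under HFD-O304, with overlapping intervals. Widths were similar, at 1016, 1059 and 1220 bp. In HFD an H3K27Ac peak of 533 bp (71652802 to 71653334) overlapped the H3K27Me3 peak at 71652901 to 71653959. Its height of 2.42 times (1.87 to 3.08) was above 3.66% of the H3K27Ac peaks at the TSS of all genes, and the peak was not retained when the 3 lists were cut to equal size. The weakest H3K27Ac peak called in RD was 2.40 times background, so a signal of this height was near the limit there. In all, 98 genes had the same TSS calls over the 6 lists as Fn1.

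Sparc encodes osteonectin, a collagen-binding matrix protein, and lies on chromosome 11 (55394500 to 55423183, minus strand). No peak of either mark was called in the gene or within 20 kb of it in any diet. The nearest H3K27Ac peak was 37.6 kb from the TSS in RD and HFD and 44.9 kb in HFD-O304. The nearest H3K27Me3 peak was 176.2 kb away in RD and 49.5 kb in HFD and HFD-O304.

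Acta2 encodes smooth muscle actin, a marker of pericytes, smooth muscle cells and activated stellate cells, and lies on chromosome 19 (34241090 to 34255590, minus strand). It had a single peak, of H3K27Me3 in HFD-O304 (34255296 to 34255546). The peak was 251 bp wide, lay wholly in exonic sequence and stood at 3.29 times background (2.14 to 4.85) on about 25 fragments. It was the narrowest H3K27Me3 peak at any of the 10 TSS, wider than 3.03% of the H3K27Me3 peaks at the TSS of all genes in HFD-O304. The nearest H3K27Me3 peak was 122.1 kb away in RD and 98.4 kb in HFD. The nearest H3K27Ac peak was 62.7 kb away in RD and 62.6 kb in HFD and HFD-O304.

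The comparison of diets asked which TSS calls changed with HFD and with O304. Between RD and HFD the H3K27Me3 call differed at 3 genes, each called in HFD and not in RD, against 2.93% of all genes. Between RD and HFD-O304 it differed at 5 genes in the same direction, against 3.35%. Both counts include Col4a1 and Col4a2 separately, although they share a peak. None of the 10 was called in RD and not in HFD, or in RD and not in HFD-O304, and each of these occurred at 1.1% of all genes. HFD-O304 differed from HFD at Col1a1 and Acta2, both called in HFD-O304, against 1.79%. No H3K27Me3 call of HFD was missing in HFD-O304, against 1.38% of all genes. Sorted by pattern, 3 genes had the mark in HFD and HFD-O304 but not in RD (1.94% of all genes), 2 in HFD-O304 alone (1.4%) and 2 in all diets (5.14%). For H3K27Ac the only difference was Fn1, called in HFD alone, as were 2.11% of all genes (6.61% had the mark in HFD and not RD, and 2.83% in HFD and not HFD-O304).

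The H3K27Me3 lists of HFD and HFD-O304 had fewer kept fragments than that of RD and larger shares of duplicates, 55.0% and 56.9% against 45.7%. The lists were also cut to equal size, 15438 peaks, from 15517 in RD and 22049 in HFD-O304. That size was the whole HFD list, so no HFD call could be lost and none could be gained in RD. The H3K27Me3 calls of RD and HFD-O304 at the 10 TSS held. The counts of 2, 5 and 7 of 10 then stood against 6.6%, 8.46% and 6.63% of all genes. The part of duplicates in these calls was not tested. TSS peaks called in HFD or HFD-O304 and not in RD stood at 3.24 to 3.75 times background, each above the weakest RD peak of 2.74. The lower bound of each of their intervals was below the weakest peak of its own list. H3K27Me3 peaks at TSS shared with RD were also higher in these diets, with median ratios of 1.21 (HFD) and 1.16 (HFD-O304). The heights therefore do not tell whether such a peak would have been called in RD.

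Where a peak was present in both of a pair of diets, heights differed little. Heights could be compared at Vegfa for H3K27Ac in each pair, at 2 genes for H3K27Me3 between RD and either other diet, and at 5 genes between HFD and HFD-O304. None of these was at least 1.2 times higher or lower, and genes with a peak in a single diet of the pair could not be compared. Vegfa H3K27Ac was 1.16 times as high in HFD as in RD and 1.11 times as high in HFD-O304, while the median gene with peaks in both diets stood at 1.05 and 1.06. At least 1.2 times higher were 12% of 9492 genes in HFD and 13.5% of 9440 in HFD-O304. Kdr H3K27Me3 was 1.16 and 1.15 times as high in HFD and HFD-O304 as in RD, and Fn1 H3K27Me3 1.12 and 1.05 times. These ratios were below the medians of 1.21 and 1.16 over 1214 and 1213 genes, of which 53.6% and 37.3% were at least 1.2 times higher. HFD-O304 over HFD gave 0.990 at Kdr, 0.960 at Col1a2, 0.946 at the Col4a pair and 0.934 at Fn1 for H3K27Me3, around the median of 0.964, and 0.954 at Vegfa for H3K27Ac, where the median was 1.01. In this pair 5.16% of 10321 genes were at least 1.2 times higher and 3.05% lower for H3K27Ac, and 1.8% and 6.5% of 1554 genes for H3K27Me3. Against RD, at least 1.2 times lower heights were found at 1.77% (HFD) and 1.51% (HFD-O304) of genes for H3K27Ac and at 0.0824% and 0.165% for H3K27Me3.

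Over the gene bodies with their flanks, H3K27Ac was again found at fewer of the 10 genes than the background and H3K27Me3 at more in HFD and HFD-O304. H3K27Ac was found in the windows of Pecam1, Vegfa and Col4a1 in RD (3 of 10, against 63.4% of all genes), of these and Fn1 in HFD (4 of 10, against 69.5%) and of Pecam1, Vegfa and Col4a1 in HFD-O304 (3 of 10, against 68%). H3K27Me3 was found in the windows of 3 genes under RD, 6 under HFD and 7 under HFD-O304, against 29.9%, 30.6% and 36.4% of all genes. Long genes leave more room for a peak, so the covered length was compared as well. Of 932.7 kb in these windows, counted once where they overlap, H3K27Ac covered 15.2 kb in RD, 23.8 kb in HFD and 21.5 kb in HFD-O304, or 1.63%, 2.55% and 2.30%. The windows of all genes were covered to 1.05%, 1.49% and 1.43%, so the 10 windows together exceeded these by length although fewer of them had a peak. Most of this length lay at Vegfa (6652, 8937 and 7397 bp in RD, HFD and HFD-O304) and Col4a1 (7703, 9252 and 9563 bp). Kdr, Col1a1, Col1a2, Col4a2, Sparc and Acta2 had none in any diet. H3K27Me3 covered 2.7, 10.2 and 7.5 kb, or 0.287%, 1.09% and 0.803%, against 0.521%, 0.658% and 0.837% of all windows. The 6, 10 and 10 distinct H3K27Ac peaks had median widths of 3009, 2773 and 2132 bp, and the 3, 9 and 10 distinct H3K27Me3 peaks of 967, 966 and 627 bp. In no case were 50% or more of a peak's bases repeat-masked, and no peak reached the TSS of a protein-coding gene outside the 10.

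The CpG content of the promoters was not used in choosing the genes and divided them into a rich and a poor group. It is given as the ratio of observed to expected CpG within 500 bp of the TSS. The TSS is that of the GENCODE gene record, and RefSeq places the start further inside the gene at Col1a2, Acta2 and Sparc. Col4a2 (0.785), Col4a1 (0.775), Vegfa (0.696), Fn1 (0.688) and Kdr (0.665) were above the median of 0.552 over all genes. Col1a1 (0.30), Pecam1 (0.294), Acta2 (0.283), Col1a2 (0.211) and Sparc (0.163) were below it. Genes with H3K27Ac alone in any diet had a median of 0.748, those with H3K27Me3 alone 0.588, those with both 0.682 and those with neither 0.193. Among 10083 genes with a ratio over 0.6, H3K27Ac was called at 78.6%, 85.7% and 84.9% in RD, HFD and HFD-O304, whereas 1, 2 and 1 of the 5 members in this range had it. H3K27Me3 was called at 9.04%, 11.4% and 10.8% of the same genes and at 2, 4 and 4 of the 5. Col4a1 and Col4a2 are counted separately here although they share a peak. Among 7266 genes under 0.3, H3K27Me3 was called at 1.95%, 2.24% and 3.30%, and at 0, 1 (Col1a2) and 2 (Col1a2 and Acta2) of 4 members. The H3K27Me3 peaks at the CpG-poor promoters were 251 bp wide at Acta2, 345 bp at Col1a1 and 986 and 585 bp at Col1a2, while those at Kdr, Fn1 and the Col4a pair ranged from 967 to 2433 bp.

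**Figure D3:**
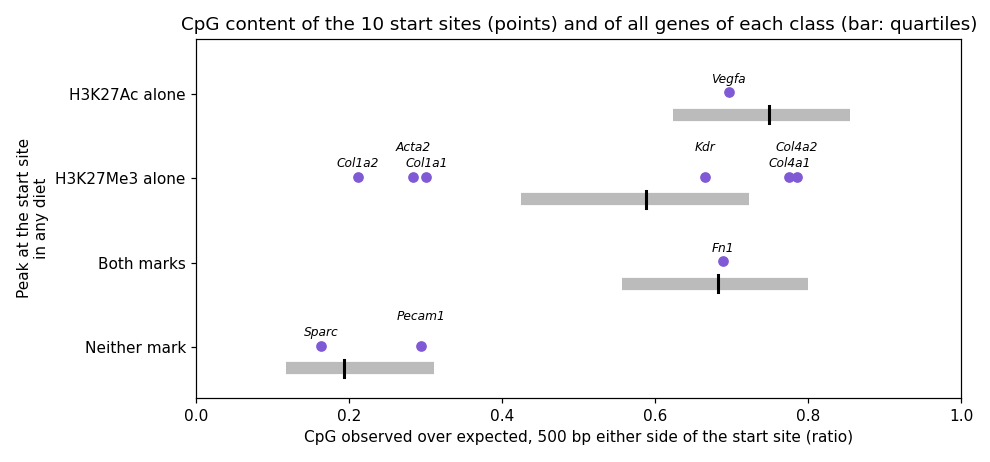
Observed over expected CpG (ratio) within 500 bp of the TSS for the 10 genes (points) by the marks called at the TSS in any diet, with the quartiles (grey bar) and median (black line) of all genes of each class. In the H3K27Me3 class Kdr lies between the quartiles, Col4a1 and Col4a2 lie above the upper quartile of 0.722, and Col1a1, Col1a2 and Acta2 lie below its lower quartile of 0.425.

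Other motifs were searched on both strands of the 250 bases before each TSS. The GC box was also present in the windows of Col1a1 (1 match) and Col4a2 (2 matches), and Acta2 had 1 match to GATAAG, present in 6.14% of all windows. CCGGAAG (8.03% of all windows), TGANTCA (6.05%), TATAAA (11.5%) and the CArG box (1.33%) were not found in any of the 10 windows. The windows end at the start of the GENCODE gene record. RefSeq places the start further inside the gene at Acta2 (34255373), Col1a2 (4505618) and Sparc (55420080). The bases just before those starts were not searched in full, so a motif missing here may be present there. Pecam1, Col1a2, Col4a1 and Sparc held none of the motifs searched.

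Related genes were counted at the TSS to place the 10 in their pathways, with Flt1 and Flt4 in the lists of endothelial genes and of signalling partners. Of 24 further endothelial genes, H3K27Ac was called at 4 under RD, 4 under HFD and 5 under HFD-O304 (16.7%, 16.7% and 20.8%), and H3K27Me3 at 4, 5 and 8 (16.7%, 20.8% and 33.3%). As at Kdr, H3K27Me3 was called in each diet at Flt1 (3.46, 3.61 and 3.79 times background), which encodes the decoy receptor VEGFR1, at Cldn5 (2.98, 3.40 and 3.49), which encodes a tight junction protein, and at Erg (3.54, 3.87 and 4.76), an endothelial transcription factor. Flt4, which encodes the lymphatic receptor VEGFR3, had it in HFD (3.85) and HFD-O304 (3.26) and not in RD, as did the transcription factor gene Sox18 (3.38 and 3.55). That pattern was found at 2 of the 24, against 1.94% of all genes. H3K27Ac was highest at Pdgfb (3.28 in HFD and 2.95 in HFD-O304, not called in RD), which encodes the ligand that recruits pericytes, and at Ece1 (2.93, 3.02 and 2.93), the endothelin-converting enzyme. Flt1 and Esam, an endothelial adhesion molecule, had H3K27Ac in RD alone (2.54 and 2.48), as had 0.342% of all genes.

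Of 33 further genes of matrix and basement membrane, H3K27Ac was called at 5, 9 and 8 (15.2%, 27.3% and 24.2%) and H3K27Me3 at 5, 10 and 10 (15.2%, 30.3% and 30.3%) in RD, HFD and HFD-O304. The highest H3K27Ac was at Lamc1 (3.30, 3.94 and 3.75), which encodes the laminin gamma 1 chain, and at P4hb (3.59, 3.87 and 3.69), a subunit of the collagen prolyl hydroxylase with a general role in disulphide formation. In HFD and HFD-O304 but not in RD, H3K27Ac was called at 3 of the 33, against 4.5% of all genes. These were the inhibitor genes Timp2 (3.16 and 3.14) and Timp3 (2.76 and 2.49) and Hspg2 (2.64 and 2.79), which encodes perlecan. The pattern of Col1a2 and the Col4a pair for H3K27Me3 was found at 4 of the 33, against 1.94% of all genes. The 4 included the fibrillar collagen gene Col5a1 (3.74 in HFD and 3.42 in HFD-O304), the elastin gene Eln (3.78 and 3.31) and Nid1 (3.40 and 3.59), which encodes a linker of laminin and type IV collagen. H3K27Me3 was called in each diet at its homologue Nid2 (3.23, 4.65 and 3.81), at Timp3 (2.95, 3.75 and 4.23) and at Lox (2.95, 3.79 and 4.11), which encodes a collagen cross-linking oxidase.

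Of 16 further mural and stellate cell genes, H3K27Ac was called at 3, 3 and 4 (18.8%, 18.8% and 25%) and H3K27Me3 at 9, 9 and 10 (56.2%, 56.2% and 62.5%). Pdgfra (3.51, 3.94 and 4.03) and Vim (3.18, 3.82 and 4.02), which encode a growth factor receptor of mesenchymal cells and vimentin, and Kcnj8 (2.85, 4.53 and 4.11), which encodes a potassium channel subunit of pericytes, had H3K27Me3 in each diet. None of the 16 had it in HFD and HFD-O304 but not in RD, which is near the share of 1.94% of all genes. H3K27Ac stood at 2.54, 2.97 and 2.64 at Tpm2, which encodes a tropomyosin, at 2.60 in HFD and 2.91 in HFD-O304 at Notch3, and at 2.51 in RD and 2.43 in HFD-O304 at Mcam.

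Of 23 partners in VEGF, integrin and TGF-beta signalling, H3K27Ac was called at 10, 16 and 14 (43.5%, 69.6% and 60.9%), near the share of all genes in RD and above it in the other diets. The integrin subunit genes Itgb1 (3.73, 4.01 and 4.11) and Itgav (3.27, 3.39 and 3.83), whose products bind fibronectin and collagens, and Tgfbr1 (3.0, 3.29 and 3.50), which encodes a TGF-beta receptor, were the highest. Itga5, which encodes the alpha subunit of the fibronectin receptor, carried H3K27Me3 in each diet (3.33, 4.49 and 4.18) and H3K27Ac in HFD (2.63) and HFD-O304 (2.98). H3K27Ac in HFD and HFD-O304 but not in RD was also called at Tgfbr2 (2.63 and 2.82) and Itgb3 (2.48 and 2.84). In all, 4 of the 23 had this pattern, against 4.5% of all genes. H3K27Me3 was called at 6, 9 and 9 of the 23 (26.1%, 39.1% and 39.1%), and in each diet at Tgfb2 (2.99, 3.55 and 3.53). It was called in HFD and HFD-O304 but not in RD at 4, against 1.94% of all genes. The 4 included Tgfb1 (3.95 and 3.74), which encodes a cytokine that induces collagen, and Epas1 (3.24 and 3.40), which encodes an oxygen-regulated factor. Itga1, which encodes a collagen receptor subunit, had H3K27Me3 in RD alone, as had 0.711% of all genes. Its height of 2.74 was the weakest level of that list.

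**Figure D4:**
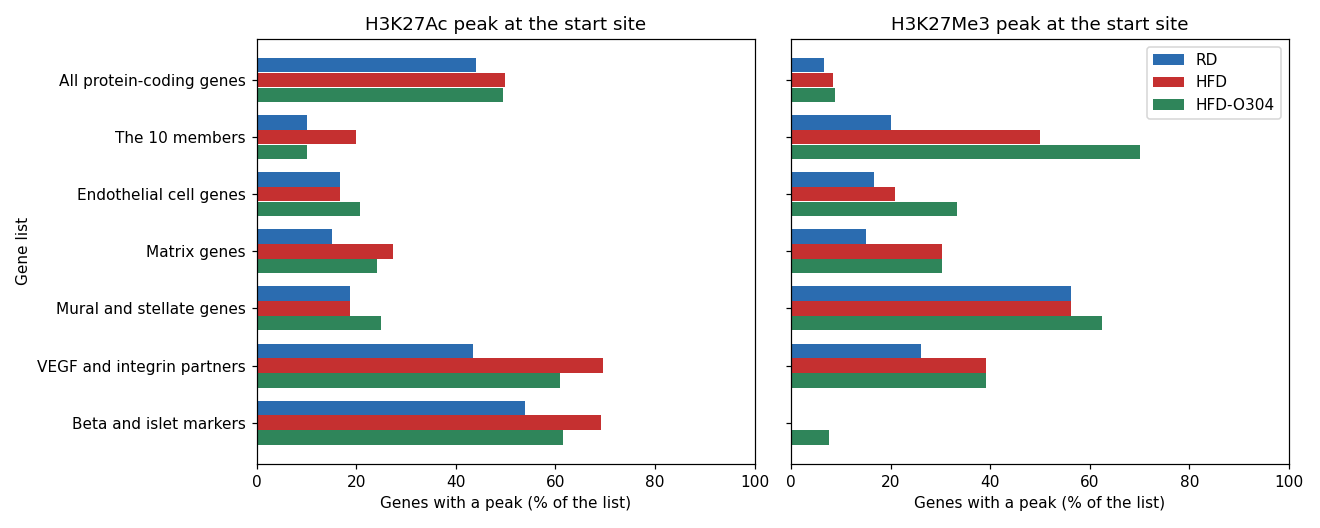
Share of each gene list (percent) with an H3K27Ac (left) or H3K27Me3 (right) peak at the TSS in RD, HFD and HFD-O304, beside all protein-coding genes. The 10 members lie below all genes for H3K27Ac and, at 20%, 50% and 70%, above them for H3K27Me3. The beta and islet markers lie above all genes for H3K27Ac. For H3K27Me3 these 13 markers lie at 0%, 0% and 7.69%, where all genes are at 6.63%, 8.46% and 8.88%.

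The marker lists gave the levels of other cell types beside these results. Over all genes, H3K27Ac was called at 44.1%, 49.9% and 49.4% and H3K27Me3 at 6.63%, 8.46% and 8.88% in RD, HFD and HFD-O304. Of 10 endothelial markers, which include Pecam1 and Kdr, H3K27Ac was called at 1 in RD (Flt1), 0 in HFD and 1 in HFD-O304 (Erg), and H3K27Me3 at 3, 4 and 4. Of 11 mural and stellate markers, which include Acta2, Col1a1 and Col1a2, H3K27Ac was called at 0 in each diet and H3K27Me3 at 2, 3 and 5. Of 13 beta and islet markers, H3K27Me3 was called at 0, 0 and 1 (Nkx6-1). Of 9 acinar and duct markers, H3K27Me3 was called at 2, 1 and 3, and in RD H3K27Ac was called at 1, the acinar protease gene Cela3b. The part of cell composition in the calls at the 10 genes was not tested.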

How the data were processed

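ChIP-seq of H3K27Ac and H3K27Me3 in islets of RD, HFD and HFD-O304 mice gave 12 samples, 2 for each mark and diet, and 3 inputs that were not analysed here. Groups were taken from the sample titles. The authors aligned paired-end reads to GRCm38 (Ensembl annotation) with bowtie2, merged the replicates and called peaks in the broad mode of MACS 2.1.2. Each list, per the file headers, had a q cutoff of 0.01, a genome size of 1.87e+09, 1 fragment kept per position, a uniform background and no control. The study's methods give an FDR below 0.01, as in the headers, but list caller options with a looser cutoff. The lowest −log10 q in any list was 2.06, so absence of a peak refers to the header's cutoff. The submitters' processing notes also name FastQC and STAR.

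Each peak has a pileup, the signal in fragments per base deposited by the authors. The deposited −log10 q was computed against the uniform background. The deposited fold enrichment is the ratio of pileup plus 1 to background plus 1. Peak positions and widths were used as deposited, and no authors' comparison between diets was used.

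From these, pileup over background was computed as pileup divided by kept fragments times fragment size over genome size. A gene was called where a peak overlapped its window by at least 1 bp, with the 5′ end of its record in GENCODE mouse release 21 as TSS. CpG content, repeats and sequences were read from the reference. Python 3.11.15, numpy 2.4.6, pandas 2.3.3, scipy 1.17.1 and matplotlib 3.10.9 were used. The overlap step was tested on simulated data, in which 0 of 5000 genes were called wrongly. Kept fragments per list lay between 54166902 and 95218072, and intervals are 95% Poisson intervals on the estimated fragments of a peak.

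All 10 members are named. Of each related list, up to 3 genes were named for the highest H3K27Ac, for H3K27Me3 in all diets, and for each mark in HFD and HFD-O304 but not RD, or in RD alone. Markers named in the check of the tissue, at the end of the report and in a count of 5 or fewer were chosen after their values were seen. Members, lists and rules were chosen with earlier results of these data known, and the lists support no independent claim. Alternatives were a stricter q, a common fold, lists of equal size, removal of repeat-rich peaks, overlap by midpoint and other windows. Some values of the marker lists are not reported here.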

Additional observations from a re-analysis of the deposited data

How the results depend on the processing

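No paired analysis was possible because each mark and diet has 1 peak list made from both replicates, which also keeps either from being left out. A stricter q, a common fold, equal list sizes and midpoints can only remove calls by construction, and wider windows can only add them. The common fold and the equal size left the HFD list of H3K27Me3 and the RD list of H3K27Ac whole, so calls in these could not change. The cause of other changes was not tested. Counts and covered lengths over the 10 genes were recomputed under 9 alternatives that could change them. Of 156 values, 120 stayed within 1.5 times that reported and 36 did not. A common fold and a TSS window of 500 bp either side moved none by more. Removal of repeat-rich peaks, and of peaks at the TSS of another gene, took out no peak of the 10 genes and tests nothing. With a −log10 q of at least 5, H3K27Ac in HFD was at 1 TSS and in 2 windows, and covered 6703, 12358 and 10231 bp in RD, HFD and HFD-O304. H3K27Me3 was at 0, 0 and 1 TSS and in 0, 0 and 1 windows, and covered 0, 0 and 1755 bp. H3K27Ac calls then differed at 0 genes between RD and HFD and between HFD and HFD-O304, and H3K27Me3 calls at 0, 1 and 1 genes for RD and HFD, RD and HFD-O304, and HFD and HFD-O304. With lists of equal size H3K27Ac was at 1 TSS in HFD, and its calls differed at 0 genes between RD and HFD and between HFD and HFD-O304. Peak midpoints put H3K27Ac at 0, 1 and 0 TSS, since the wide Vegfa peaks are centred inside the gene. With 2 kb either side of the TSS, or any transcript start, H3K27Me3 calls differed at 1 gene between HFD and HFD-O304. Any transcript start put H3K27Ac at 2 TSS in RD and 2 in HFD-O304. Gene bodies alone left 1729 bp of H3K27Me3 in RD, and 50 kb flanks put H3K27Ac in 8, 8 and 8 windows, over 27545, 43239 and 39660 bp. With the deposited fold in place of pileup over background, all 18 heights of single genes stayed inside their counting intervals. Averaging over TSS peaks tests nothing, since each called TSS had 1 peak. Among the TSS peaks, those of about 25 fragments at Acta2 and 40 at Col1a1 had the widest counting intervals.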
